A study of Homo sapiens with 8 samples.

Results

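The 10 genes described here encode folding helpers of the endoplasmic reticulum (ER) and a transcription factor that controls several of them: HSPA5, HSP90B1, CALR, CANX, PDIA3, PDIA4, PDIA6, SDF2L1, DNAJB9 and XBP1. They were chosen by name from the 58302 genes of the count table, and all 10 passed the filter on low counts that left 14133 genes for testing. RNA sequencing compared 2 groups of DLD1, a cell line of human colorectal cancer. One group was stably transduced with lentiviral pCDH vectors for wild-type TRMT6 and TRMT61A (OE-WT), and the other with the empty vector (CTRL). By the labels, all cells were washed with cycloheximide, an inhibitor of translation, before lysis, and RNA was taken from the supernatant of the centrifuged lysate. TRMT6 and TRMT61A form the enzyme that places the methyl group of N1-methyladenosine (m1A) on tRNA. Each group had 2 libraries, and the design text gives duplicate cultures for each group. No source used here says whether the 2 cultures of a group came from separate transductions, so the p-values measure the spread between these libraries. The purpose of the RNA sequencing, as the series gives it, was to profile gene expression after the overexpression.

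Proteins that enter the ER fold with the help of chaperones that bind exposed stretches, lectins that hold sugar-tagged chains and isomerases that form and reshuffle disulfide bonds. When unfolded proteins build up, the sensors IRE1, ATF6 and PERK start the unfolded protein response (UPR), which raises the transcription of chaperone and isomerase genes and slows translation. IRE1 splices the XBP1 mRNA into the form that encodes the active factor, a step that counts per gene cannot show. Secreting epithelial cells such as those of the colon depend on this machinery.

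The libraries held between 10327498 and 12379671 counts. Levels are given as CPM, the counts divided by a library size that was scaled by the TMM method and set to a common total. The overexpressed genes checked the labels. TRMT6 had 211 and 181 CPM in the OE-WT libraries against 52.6 and 55.4 in the CTRL libraries, and TRMT61A had 138 and 130 CPM against 58.9 and 56.8. Of 10 colon epithelial markers, 9 were tested, and the 10 together held between 1.11% and 1.23% of the counts in each library. Of these 9, KRT8 and KRT18 were called higher and KRT20, CDH1 and KRT19 lower, with log2 fold changes of 0.25, 0.30, -1.52, -0.29 and -0.19, and their part in the results was not tested. CDX1 had no more than 1 count in any library. Markers of blood, stromal and endothelial cells were at or near 0, with 48 to 93 counts for the 11 genes together in a library.

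Upstream sequences are shown because a letter pattern that the UPR factors are known to recognise occurs in most of these genes and is rare elsewhere. The UPR raises chaperone and isomerase genes, so finding the pattern in this list could be foreseen and is no independent result. The pattern is the ER stress response element, CCAAT and CCACG with 9 bases of any kind between them, and it was searched on both strands in the 250 bases before each RefSeq gene start (GRCh38.p14). It occurred in 26 of 35116 windows (0.0740%) and, by gene, in 25 of 27305 (0.0916%), since a gene can have several starts. Of the 10 genes, 9 had a window, PDIA3 being the other, and 6 held the pattern in at least 1 window. CANX had 4 windows, and PDIA4, PDIA6 and XBP1 had 2 each. HSPA5 and XBP1, which differed in opposite directions between the groups, are shown at length. Their sequences run 5′ to 3′ on the gene's strand over the part of the window that lies outside the gene as GENCODE draws it, which is chr9:125241383-125241593 (minus strand) for HSPA5 and chr22:28800598-28800819 (minus strand) for XBP1. Capitals mark the pattern.
HSPA5: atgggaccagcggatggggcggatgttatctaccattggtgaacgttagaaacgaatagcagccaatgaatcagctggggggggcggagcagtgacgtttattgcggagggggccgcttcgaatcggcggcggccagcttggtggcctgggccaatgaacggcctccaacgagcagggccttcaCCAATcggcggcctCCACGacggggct
XBP1: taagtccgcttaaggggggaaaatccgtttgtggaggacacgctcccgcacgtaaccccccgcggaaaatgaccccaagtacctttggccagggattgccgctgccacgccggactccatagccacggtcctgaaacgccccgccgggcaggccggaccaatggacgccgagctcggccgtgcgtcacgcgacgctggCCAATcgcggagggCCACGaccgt

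The other matches are shown with 5 bases on each side, on the gene's strand, so that the shared letters and the differing spacers can be compared. They lie at chr12:103930211-103930239 and chr12:103930316-103930344 for HSP90B1, chr19:12938379-12938407 for CALR and chr5:179698773-179698801 for CANX, all on the plus strand, and at chr2:10812848-10812876 on the minus strand for PDIA6. The second HSP90B1 match and the CALR match are on the opposite strand and so read CGTGG before ATTGG. The match ended 47 bases before the RefSeq start in HSPA5, 33 in XBP1 and 67 in PDIA6. It ended 132 bases before that start in CANX, 206 in CALR, and 175 and 70 in HSP90B1. The windows of HSP90B1, CANX and PDIA6 lie wholly inside the gene as GENCODE draws it. Their matches are thus upstream of a RefSeq start and not of the whole gene.
HSP90B1 first: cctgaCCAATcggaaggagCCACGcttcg
HSP90B1 second: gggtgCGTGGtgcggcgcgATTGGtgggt
CALR: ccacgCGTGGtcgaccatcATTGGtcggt
CANX: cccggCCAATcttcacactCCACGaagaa
PDIA6: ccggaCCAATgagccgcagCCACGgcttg

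SDF2L1 held the short form of this element, ATTGG and CCACG 1 base apart, which occurred in 18 windows (0.0513%). The match, at chr22:21642109-21642129 on the plus strand, is on the opposite strand and ended 177 bases before the gene's start. Another pattern of the same pathway, TGACGTGG, occurred in 215 windows (0.612%) and in none of the 9. None of these matches overlapped another, and PDIA4 and DNAJB9 held none of the 3 patterns in their windows.
SDF2L1: ggaagCGTGGaCCAATcaaaa

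HSPA5 and HSP90B1, the Hsp70 and Hsp90 chaperones of the ER lumen, were higher in OE-WT cells. HSPA5 (ENSG00000044574, chromosome 9, 125234853 to 125241382, GRCh38) encodes BiP, which binds unfolded chains and holds the UPR sensors inactive. It had 6129 and 6334 CPM in the OE-WT libraries and 5009 and 5142 CPM in the CTRL libraries. The groups did not overlap, and the gap between them was larger than the spread within either. HSPA5 thus had a log2 fold change of 0.30 (SE, the standard error, 0.07, 95% interval 0.14 to 0.45, adjusted p = 0.00603 in the edgeR quasi-likelihood test), a 1.23-fold difference. The call was lost with library size as the sole scaling (log2 fold change 0.21, adjusted p = 0.172) and without OE-WT replicate 2 (0.26, adjusted p = 0.109). In bulk RNA, a larger share of cells that express a gene and more of its RNA per cell cannot be told apart.

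HSP90B1 (ENSG00000166598, chromosome 12, 103930107 to 103953931) encodes GRP94, which helps fold integrins and Toll-like receptors. It had 1105 and 1076 CPM in the OE-WT libraries and 744 and 830 CPM in the CTRL libraries. Here too no CTRL library reached an OE-WT library. The log2 fold change of HSP90B1 was the largest of the 10, at 0.47 (SE 0.07, 95% interval 0.33 to 0.62, adjusted p = 4.78e-05 in the edgeR quasi-likelihood test), and its call held in all 12 alternative settings.

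CALR and CANX, the lectin chaperones calreticulin and calnexin that hold glycoproteins until they fold, did not pass the test. CALR (ENSG00000179218, chromosome 19, 12938578 to 12944489) had 4528 and 4912 CPM in the OE-WT libraries and 4485 and 4232 CPM in the CTRL libraries. One OE-WT library stood close to the higher CTRL library. The log2 fold change was 0.11 (95% interval -0.04 to 0.27, adjusted p = 0.2996 in the edgeR quasi-likelihood test). With 1 library left out it ranged from 0.04, without OE-WT replicate 2, to 0.17, without OE-WT replicate 1. Over all 12 alternative settings it ranged from 0.02 to 0.17. CANX (ENSG00000127022, chromosome 5, 179678628 to 179731641) had 1106 and 993 CPM in the OE-WT libraries and 887 and 981 CPM in the CTRL libraries. Its lower OE-WT library and its higher CTRL library lay next to each other. For CANX the log2 fold change was 0.17 (95% interval 0.02 to 0.32, adjusted p = 0.106 in the same test). Over 12 alternative settings it ranged from 0.05 to 0.24, the latter without CTRL replicate 2. CANX was called in 1 of these 12.

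Among the disulfide isomerases, PDIA4 was higher in OE-WT cells and PDIA3 and PDIA6 did not pass the test. PDIA4 (ENSG00000155660, chromosome 7, 149003062 to 149028662), also known as ERp72, had 2421 and 2744 CPM in the OE-WT libraries and 2220 and 2100 CPM in the CTRL libraries. The groups did not overlap, and the OE-WT libraries lay further apart than the CTRL libraries. PDIA4 had a log2 fold change of 0.26 (SE 0.07, 95% interval 0.10 to 0.41, adjusted p = 0.0171 in the edgeR quasi-likelihood test). This call held in 8 of 12 alternative settings and was lost, among others, with library size as the sole scaling (0.17, adjusted p = 0.244), without OE-WT replicate 2 (0.15, adjusted p = 0.311) and without CTRL replicate 2 (0.22, adjusted p = 0.0681).

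PDIA3 (ENSG00000167004, chromosome 15, 43746394 to 43773279), the isomerase that works with the lectins on glycoproteins, had 1327 and 1338 CPM in the OE-WT libraries and 1407 and 1418 CPM in the CTRL libraries. Both OE-WT libraries were below both CTRL libraries, with little spread inside either group. For PDIA3 the log2 fold change was -0.08 (95% interval -0.22 to 0.05, adjusted p = 0.396 in the edgeR quasi-likelihood test). PDIA6 (ENSG00000143870, chromosome 2, 10783391 to 10837977), which also binds the UPR sensors, had 1175 and 1247 CPM in the OE-WT libraries and 1207.02 and 1207.39 CPM in the CTRL libraries. The CTRL libraries lay between the OE-WT libraries, and PDIA6 was the 1 gene of the 10 whose groups overlapped. Its log2 fold change was 0.0046 (95% interval -0.13 to 0.14, adjusted p = 0.971 in the same test), and its sign changed in 5 alternative settings. The coding sequences of these 3 genes set them apart from nearly all others, because each encodes the Cys-Gly-His-Cys site of a catalytic thioredoxin domain more than once: 2 in PDIA3, 3 in PDIA4 and 2 in PDIA6. Only 5 of 19985 proteins had 2 or more.

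SDF2L1 and DNAJB9 act with HSPA5. SDF2L1 (ENSG00000128228, chromosome 22, 21642302 to 21644299), which with DNAJB11 keeps client proteins soluble, had 108 and 126 CPM in the OE-WT libraries and 103 and 101 CPM in the CTRL libraries. The OE-WT libraries were both higher, and 1 of them only slightly. The log2 fold change was 0.19 (95% interval 0.04 to 0.35, adjusted p = 0.0710 in the edgeR quasi-likelihood test). With a trend against GC content removed from each library it was 0.39 (adjusted p = 0.000656 in the same test). With 1 library left out it ranged from 0.07 to 0.30, the latter without OE-WT replicate 1. SDF2L1 was called in 2 of 12 alternative settings. At 65.1% GC, the SDF2L1 transcript had the highest GC content of the 10, and the part of GC content in these values was not tested further.

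DNAJB9 (ENSG00000128590, chromosome 7, 108569867 to 108574850) encodes ERdj4, the co-chaperone through which HSPA5 represses IRE1. It had 25.8 and 27.2 CPM in the OE-WT libraries and 31.2 and 30.5 CPM in the CTRL libraries, the lowest level of the 10. Both OE-WT libraries were lower than both CTRL libraries. For DNAJB9 the log2 fold change was -0.22 (95% interval -0.42 to -0.02, adjusted p = 0.116 in the edgeR quasi-likelihood test). DNAJB9 passed the test in 2 of 12 alternative settings, over which its log2 fold change ranged from -0.34 to -0.18. These 2 were library size as the sole scaling (-0.31, adjusted p = 0.0277) and removal of the GC trend (-0.34, adjusted p = 0.0180). Library size as the sole scaling also lowered the median log2 fold change of all genes by 0.09. The DNAJB9 transcript had the lowest GC content of the 10, 37.3%.

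XBP1, the transcription factor of the IRE1 branch, was lower in OE-WT cells. XBP1 (ENSG00000100219, chromosome 22, 28794555 to 28800597) had 297 and 319 CPM in the OE-WT libraries and 414 and 379 CPM in the CTRL libraries. The gap between the groups was larger than the spread within either. XBP1 had a log2 fold change of -0.36 (SE 0.07, 95% interval -0.50 to -0.22, adjusted p = 0.000532 in the edgeR quasi-likelihood test), and the call held in all 12 alternative settings. XBP1 was thus lower while HSPA5 and HSP90B1, which carry the same upstream pattern, were higher.

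**Figure D1:**
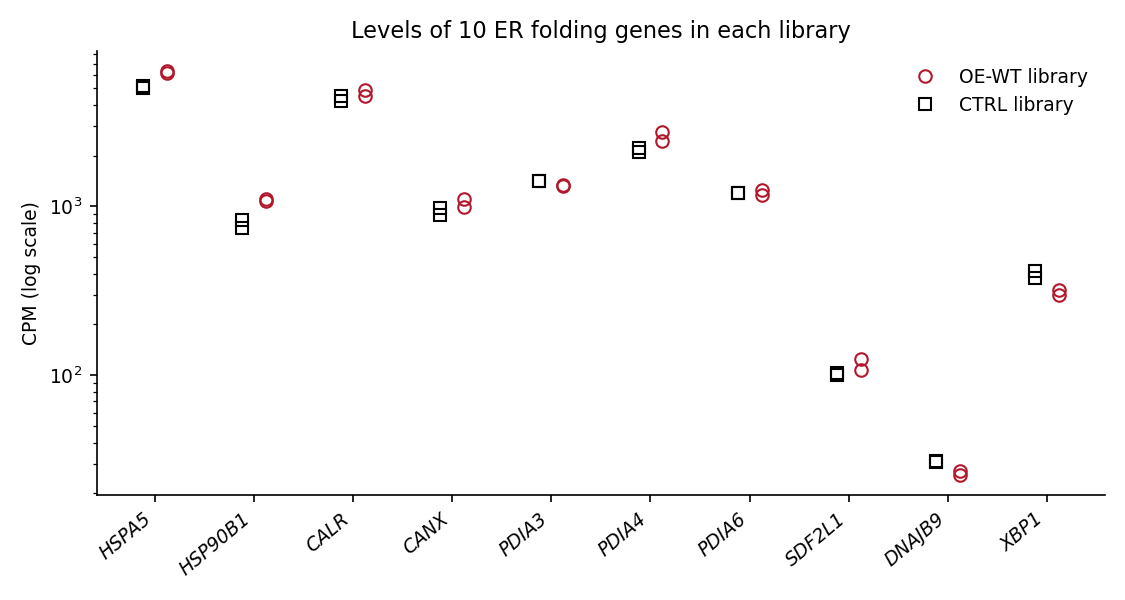
Level of each of the 10 genes in each library, in CPM on a log axis, with OE-WT libraries as red circles and CTRL libraries as black squares. HSPA5 stands at the top with 5009 to 6334 CPM and DNAJB9 at the bottom with 25.8 to 31.2 CPM. The OE-WT circles lie above the CTRL squares for HSPA5, HSP90B1, PDIA4, CALR, CANX and SDF2L1. They lie below them for XBP1, PDIA3 and DNAJB9, and the groups overlap for PDIA6. Of these genes, HSPA5, HSP90B1 and PDIA4 were called higher and XBP1 lower.

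At a threshold of 0.05 on the adjusted p, 3 of the 10 genes were higher, 1 was lower and 6 were not called. The background over the 14133 genes was 9.44% called higher, 11.6% called lower and 21.1% called in either direction. Calls are more frequent among well-counted genes. Of the 4449 genes at or above the mean level of DNAJB9, 36.4% were called, 16.9% higher and 19.5% lower. Of the 10, 40% were called, 30% higher and 10% lower. The libraries of the groups did not overlap for 9 of the 10, for 3179 of those 4449 genes and for 60.2% of all genes tested. The median log2 fold change of the 10 genes was 0.14, beside 0.01 for all genes tested, and the range ran from -0.36 to 0.47. Without OE-WT replicate 2, 1 of the 10 was higher and 1 lower, with a median of 0.056, and with library size as the sole scaling 1 was higher and 2 were lower, with a median of 0.0502. The study's thresholds were an unadjusted p below 0.05 together with an absolute log2 difference above 1. Of the 10 genes 0 passed them, beside 3.15% of all genes tested. At the unadjusted p alone 5 were higher and 2 lower, since CANX, SDF2L1 and DNAJB9 were added to the 4 called genes, beside 16.4% of all genes tested higher and 17.5% lower.

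**Figure D2:**
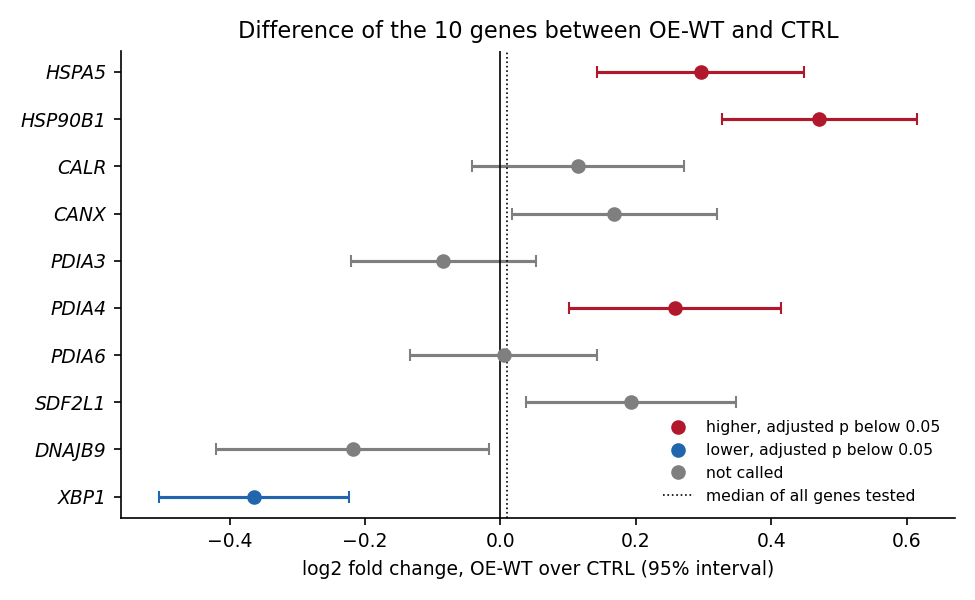
Log2 fold change of each gene, OE-WT over CTRL, with the 95% interval of edgeR's quasi-likelihood fit as a bar. HSPA5 (0.30), HSP90B1 (0.47) and PDIA4 (0.26) are marked as higher and XBP1 (-0.36) as lower, and the dotted line at 0.01 is the median of all genes tested.

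All of these genes but DNAJB9 stood among the most abundant transcripts of these cells. Levels were compared between genes only per kilobase of transcript. In CTRL cells CALR had the highest level, 2293 ± 94.3 CPM per kilobase (SD, n = 2 libraries), and HSPA5 the next, 1294 ± 24.0. PDIA4 followed with 781 ± 30.7, PDIA6 with 529.7 ± 0.114 and PDIA3 with 384 ± 2.06. HSP90B1 had 283 ± 22.0 CPM per kilobase, XBP1 221 ± 13.8, CANX 190.1 ± 13.5, SDF2L1 124 ± 2.13 and DNAJB9 12.8 ± 0.190. Each neighbour in this order lay further from the next than the SDs of the pair, with the smallest gap, relative to its spread, between XBP1 and CANX. Over all genes tested, 9 of the 10 lay above the 96th percentile of level per kilobase and DNAJB9 at the 71st. Together the 10 genes held 1.73% and 1.88% of all OE-WT counts, against 1.72% and 1.68% of all CTRL counts. The lower OE-WT value lay next to the higher CTRL value. HSPA5, CALR and PDIA4 alone made up 1.24% and 1.38% of the OE-WT counts, against 1.22% and 1.17% of the CTRL counts.

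The sensors and effectors of the UPR showed no gene called higher. Of 26 listed, 24 were tested, and 0 were higher and 5 lower (20.8%) in the edgeR quasi-likelihood test. The median log2 fold change was -0.10. Of all genes tested, 9.44% were called higher, 11.6% lower and 21.1% in either direction. Of the 4449 genes at or above the mean level of DNAJB9, 16.9% were higher and 19.5% lower. At an unadjusted p below 0.05, 2 of the 24 were higher and 9 lower, beside 16.4% and 17.5% of all genes tested. DESeq2's Wald test called 0 of the 24 higher and 2 lower. The 12 alternative settings called 0 higher, except that 2 were with the GC trend removed and 1 without OE-WT replicate 2, and the lower calls numbered 2 to 9. EIF2AK3, which encodes PERK, had 99 and 88 counts in OE-WT against 165 and 195 in CTRL libraries, and its log2 fold change was -0.62 (SE 0.16, adjusted p = 0.00743). Its adjusted p was 0.0866 without CTRL replicate 2 and 0.0586 with DESeq2's Wald test. ERN1, which encodes IRE1 alpha, had a log2 fold change of -0.15 (adjusted p = 0.380) and ATF6, the sensor cleaved in the Golgi, one of -0.09 (adjusted p = 0.420).

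The genes of the PERK branch described next were called lower or not called. PPP1R15A, which encodes the phosphatase subunit GADD34 that reverses the PERK signal, fell from 367 ± 12.1 CPM in CTRL to 283 ± 10.8 CPM in OE-WT cells (mean ± SD of 2 libraries). Its log2 fold change was -0.38 (SE 0.06, adjusted p = 0.000260 in the edgeR quasi-likelihood test). ATF4, the transcription factor of this branch, had a log2 fold change of -0.18 (SE 0.06, adjusted p = 0.0470), a call held in 4 of 12 alternative settings. DDIT3, which encodes the death-associated factor CHOP, had -0.27 (SE 0.10, adjusted p = 0.0603), which was -0.16 without OE-WT replicate 1 (adjusted p = 0.422) and -0.39 without OE-WT replicate 2 (adjusted p = 0.0190). It was called in 2 of 12 alternative settings. ATF6B, the relative of ATF6, had -0.29 (SE 0.07, adjusted p = 0.00682), a call lost without CTRL replicate 1 (-0.23, adjusted p = 0.0977). HERPUD1, a UPR target in the ER membrane, had -0.10 (adjusted p = 0.277) and holds 1 match to the short element in its window.

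The other folding factors of the ER were divided by role into co-chaperones and other proteins linked to the Hsp70 chaperone, thiol oxidoreductases, glycan-processing enzymes, prolyl isomerases with collagen enzymes, and 4 others. Of 57 listed, 54 were tested, of which 6 were higher (11.1%) and 22 lower (40.7%), with a median log2 fold change of -0.11. The shares were 9.44% and 11.6% over all genes tested. They were 16.9% and 19.5% over the 4449 genes at or above the mean level of DNAJB9. Of the 12 genes of the Hsp70 group tested, 5 were higher and 2 lower, with a median of 0.16. Of the 19 thiol oxidoreductases tested, 1 was higher and 8 were lower (median -0.12). Of the 6 glycan-processing genes tested 0 were higher and 3 lower (median -0.13), and of the 13 prolyl isomerases and collagen enzymes 0 were higher and 7 lower (median -0.29). Of the 4 others 0 were higher and 2 lower (median -0.12). The roles were assigned after these values had been seen, so no test was run on them or on the differences between them. CRELD2 and DNAJC10 were placed in the Hsp70 group, and DNAJC10 could also count as a thiol oxidoreductase. The counts of the groups depend on such choices.

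The 5 genes of the Hsp70 group that rose encode co-chaperones and other stress-responsive proteins of the ER lumen. DNAJC3, a co-chaperone that delivers clients to HSPA5, had 51.9 and 47.7 CPM in the OE-WT libraries and 31.8 and 34.7 CPM in the CTRL libraries. Its log2 fold change, 0.58 (SE 0.09, adjusted p = 6.13e-05 in the edgeR quasi-likelihood test), was the largest rise of the whole ER folding list. CRELD2, which encodes a secretory-pathway protein induced by ER stress, had 246 and 267 CPM against 173 and 187 CPM. CRELD2 had a log2 fold change of 0.51 (SE 0.07, adjusted p = 1.55e-05). DNAJB11, the co-chaperone ERdj3 that works with SDF2L1, had a log2 fold change of 0.42 (SE 0.07, adjusted p = 0.000256). For all 3 genes the groups did not overlap and the call held in 12 of 12 alternative settings. DNAJC10, a co-chaperone that also reduces disulfide bonds (0.45), and MANF, a secreted regulator of HSPA5 (0.21), were also called higher and are named after their values were seen.

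In contrast, SIL1, the nucleotide exchange factor of HSPA5, had 45.1 and 45.7 CPM in the OE-WT libraries and 69.8 and 69.3 CPM in the CTRL libraries. It fell by 0.62 on the log2 scale (SE 0.08, adjusted p = 6.00e-06 in the edgeR quasi-likelihood test). HYOU1, the other exchange factor and itself a large Hsp70 relative, had 1308 and 1296 CPM against 1188 and 1208 CPM. The groups of HYOU1 did not overlap, and its log2 fold change of 0.12 (SE 0.07, adjusted p = 0.209) did not pass the test. DNAJC1, a membrane-bound co-chaperone, had a log2 fold change of -0.68 (SE 0.13, adjusted p = 0.000723), which without CTRL replicate 2 was -0.41.

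Among the oxidoreductases outside the 10 genes, PDIA5 had 30.4 and 32.4 CPM in the OE-WT libraries and 51.6 and 50.5 CPM in the CTRL libraries. Its log2 fold change, -0.70 (SE 0.09, adjusted p = 5.43e-06 in the edgeR quasi-likelihood test), was the largest fall of the ER folding list. PDIA4 and PDIA5, both members of the same isomerase family, were thus called in opposite directions. P4HB, the founding protein disulfide isomerase, had 1829 and 1942 CPM in OE-WT and 2175 and 2145 CPM in CTRL libraries. Its log2 fold change of -0.20 (SE 0.07, adjusted p = 0.0475) was past the threshold in 3 of 12 alternative settings. ERO1A, the oxidase that recharges P4HB, had a log2 fold change of -0.20 (SE 0.09, adjusted p = 0.115). It was called in 3 of 12 alternative settings, with -0.36 without CTRL replicate 1 (adjusted p = 0.00249) and -0.03 without CTRL replicate 2 (adjusted p = 0.879). TMX4, a membrane-bound thioredoxin-like protein, had a log2 fold change of 0.46 (SE 0.09, adjusted p = 0.00142), the 1 gene of that group called higher. Without OE-WT replicate 2, TMX4 had 0.26 (adjusted p = 0.0515).

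Genes for the degradation of misfolded ER proteins (ERAD) were called in both directions. Of 32 genes tested, 3 were higher (9.38%) and 9 lower (28.1%), with a median log2 fold change of -0.05. The shares were 9.44% and 11.6% over all genes tested. They were 16.9% and 19.5% over the 4449 genes at or above the mean level of DNAJB9. EDEM2, which trims mannose to mark proteins for degradation, had -0.54 (SE 0.09, adjusted p = 0.000264 in the edgeR quasi-likelihood test). UBAC2 (-0.48) and JKAMP (-0.45), both ER membrane proteins, were lower too. UBE2J1, a ubiquitin-conjugating enzyme of the ER membrane, had 0.38 (SE 0.08, adjusted p = 0.00163), and VCP, the ATPase that pulls proteins out of the membrane, had 0.25 (SE 0.07, adjusted p = 0.0109). The VCP call was lost without CTRL replicate 1 (0.17, adjusted p = 0.174) and with library size as the sole scaling (0.16, adjusted p = 0.192). The third rise, UBE2G2 (0.22, adjusted p = 0.0463), was past the threshold in 2 of 12 alternative settings. SEL1L (0.21, adjusted p = 0.127) and SYVN1 (-0.01, adjusted p = 0.937), the core of the HRD1 ligase, did not pass the test.

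The genes for import into the ER and for N-glycosylation numbered 37, of which 3 were higher (8.11%) and 8 lower (21.6%). The shares were 9.44% and 11.6% over all genes tested, and 16.9% and 19.5% over the 4449 genes just mentioned. The median log2 fold change of the 37 was -0.03. The largest fall past the count minimum was RPN2, a subunit of the oligosaccharyltransferase, with -0.33 (SE 0.07, adjusted p = 0.00107 in the edgeR quasi-likelihood test). The largest rise was SEC11C, a catalytic subunit of signal peptidase, with 0.29 (SE 0.08, adjusted p = 0.0139), a call held in 6 of 12 alternative settings. TUSC3, an oxidoreductase subunit of the same transferase, named after its values were seen, had 2 and 1 counts in OE-WT against 27 and 18 in CTRL libraries.

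Chaperones of other compartments were tested for comparison. Of 31 cytosolic chaperone genes tested, 9 were higher and 3 lower, with a median log2 fold change of 0.16. FKBP5, a co-chaperone of cytosolic Hsp90, had 106 and 100 counts in OE-WT against 55 and 70 in CTRL libraries, and its log2 fold change was 1.04 (SE 0.19, adjusted p = 0.000370 in the edgeR quasi-likelihood test). HSPA1B, the stress-inducible Hsp70, had -0.75 (SE 0.09, adjusted p = 1.99e-06), and its near-identical paralog HSPA1A makes the split of reads between them uncertain. Of 12 mitochondrial chaperone genes tested, 4 were higher and 0 lower, with a median of 0.15. HSPD1, the mitochondrial Hsp60, had 0.44 (SE 0.08, adjusted p = 0.000380). The share called higher was 30% among the 10 ER genes, 29.0% among the cytosolic and 33.3% among the mitochondrial chaperones. It was 9.44% over all genes tested and 16.9% over the 4449 genes at or above the mean level of DNAJB9.

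Proteins of the ER carry an N-terminal hydrophobic segment that directs them there, and many soluble residents end in a short retrieval signal. By script, 9 of the 10 proteins had such a segment, XBP1 being the exception, against 25.5% of 19985 proteins. A retrieval signal was counted where a protein ended in K, R, H, Q, S or A, then D, E, N or Q, then EL. Other endings were not counted, so a protein outside this count was not shown to lack a signal. The pattern ended 6 of the 10, namely HSPA5, HSP90B1, CALR, PDIA4, PDIA6 and SDF2L1, against 0.270% of all proteins. Of the 1979 tested genes with a segment, 98 were higher and 663 lower in OE-WT cells, with a median log2 fold change of -0.21. The 9 genes with a segment had 3 higher and 0 lower, and XBP1, the gene of the 10 called lower, has no segment. Genes with both a segment and a retrieval signal, the class closest to these 6, had 2 higher and 13 lower among the 32 tested with the 6 left out, with a median of -0.27. Of the 6, HSPA5, HSP90B1 and PDIA4 were higher and CALR, PDIA6 and SDF2L1 were not called. The 10 genes were chosen with earlier results of these data known, so how they differ from these classes is a description and was not tested. The proteins are also acidic. In CALR 26.1% of residues were aspartate or glutamate, in CANX 23.1% and in HSP90B1 21.3%, against a median of 11.4% over all proteins, and 9 of the 10 lay above that median. The exception was SDF2L1 with 9.50%.

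The upstream pattern shown above was read against the fold changes. Outside the 10 genes, 9 tested genes held CCAAT and CCACG 9 bases apart, of which 1 was called higher, CRELD2, and 0 lower. The share called higher was 11.1%, beside 9.44% of all genes tested. CRELD2 and ALG12 share the same match, as do EIF2A and SERP1, so the 9 genes are not independent. The median log2 fold change of the 9 was 0.10, against 0.01 for all genes tested. The 6 with the pattern among the 10 had 2 higher (HSPA5 and HSP90B1), 1 lower (XBP1) and 3 not called. PDIA4 was higher and held none of the patterns. Outside the 10, the short form was held by 13 tested genes, of which 1 was higher and 1 lower. TGACGTGG was held by 97 tested genes, of which 9 were higher and 10 lower. Each match is a description of letters and was not tested as a binding site.

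Most annotated copies and overlapping genes of the 10 held few counts, which does not show how many reads they share with the 10. The pseudogenes HSPA5P1 and PDIA3P1 held 52 and 90 counts over the 4 libraries. UQCC6, TTC41P and ELL3, which overlap HSP90B1 or PDIA3 on the opposite strand, held 255, 53 and 46 counts. CALR and PDIA6 have busier neighbours. ENSG00000267458, a noncoding gene (chromosome 19, 12944118 to 12944487) inside CALR on the opposite strand, held 18641 counts, with a log2 fold change of 0.12 (adjusted p = 0.184 in the edgeR quasi-likelihood test) beside 0.11 for CALR. ATP6V1C2, opposite PDIA6, held 21352 counts and had a log2 fold change of -0.01 (adjusted p = 0.964). The labels describe a stranded kit, and the strand setting of the counting is not given in the sources used here, so how far these counts belong to CALR and PDIA6 was not tested.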

How the data were processed

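Raw counts per gene were deposited by the authors for 2 OE-WT and 2 CTRL libraries, each sequenced in 2 lanes that the table does not separate. The paper's methods give 3 biological replicates, removal of ribosomal RNA, trimming with Cutadapt, alignment to GRCh38 with HISAT2 and counting with HTSeq. The labels give selection of poly(A) RNA from the supernatant of a centrifuged lysate of cells washed with cycloheximide, and the submitters' processing notes list HISAT2 2.2.1, featureCounts 2.0.0 and DESeq2 1.34.0. The annotation release is not given in the sources used here.

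GENCODE release 44 matched 57532 identifiers. Counts were filtered by group (minimum count 10), normalized by TMM and tested with edgeR 4.0.16 (R 4.3.3, quasi-likelihood test, no replicate block), with Benjamini-Hochberg adjustment over 14133 genes. The SE is the estimated log2 fold change over the root of its F statistic, and 95% intervals use the t distribution. An exact two-sided permutation test of 2 against 2 libraries cannot give a p below 0.333. A hydrophobic segment was 11 residues among the first 40 whose mean Kyte-Doolittle hydropathy reached 2.0. In simulated tables of 14133 genes with 200 changed, the fit recovered 43% of genes changed by a log2 fold change of 0.5 and 72% of those changed by 1. Smaller differences, such as those of most of the 10 genes, were not simulated. Intervals cover the spread between these libraries only.

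The 10 genes and all gene lists were chosen with earlier results of these data known. Named beside the 10 and the overexpressed genes were 13 UPR and folding genes, the 3 largest rises and falls of the folding, UPR and ERAD lists (adjusted p below 0.05, mean of at least 50 counts), the largest of each in the comparison lists, copies and overlapping genes. Alternative settings changed the scaling (RLE, or library size only), the test (DESeq2 1.42.0, edgeR's likelihood ratio test), the filter (1 count in all, or 10 in each library) or the design (replicate block, leaving out 1 library), or removed a GC trend per library (lowess, span 0.3). Other assays were not analysed here.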

Additional observations from a re-analysis of the deposited data

How the results depend on the processing

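Over 12 alternative settings, HSP90B1 was called higher and XBP1 lower in all 12, and CALR, PDIA3 and PDIA6 were called in none. Scaling by library size only lowered the median log2 fold change of all genes by 0.09 and the share of higher calls over all genes from 44.8% to 23.0% (733 higher, 2451 lower). Under it 1 of the 10 genes was higher and 2 were lower, with a median log2 fold change of 0.0502. HSPA5 (0.205, adjusted p = 0.172) and PDIA4 (0.168, adjusted p = 0.244) were then not called by the edgeR test, and DNAJB9 was (-0.310, adjusted p = 0.0277). With the GC trend removed 2 were lower, and SDF2L1 (0.390) and DNAJB9 (-0.338) were called. PDIA6 changed sign, to -0.0860 with library size only, -0.0149 with at least 1 count, -0.0015 with at least 10 counts in each library, -0.0615 with the GC trend removed and -0.0507 without OE-WT replicate 2. ATF6 was 0.0017 without CTRL replicate 1, and SYVN1 was 0.0912 with the GC trend removed. Causes of these changes were not tested.
Leaving out each library in turn leaves 1 group with 1 library, which is then assumed to vary like the others. Of the 10 genes 2 (without OE-WT replicate 2) to 5 were called, 1 to 4 of them higher, with medians from 0.0559 to 0.132. Log2 fold changes ranged from 0.261 to 0.321 for HSPA5, 0.0438 to 0.174 for CALR, 0.0895 to 0.243 for CANX, 0.154 to 0.346 for PDIA4, -0.0507 to 0.0484 for PDIA6, 0.0680 to 0.298 for SDF2L1, -0.362 to -0.0293 for ERO1A, -0.391 to -0.162 for DDIT3, -0.174 to 0.0017 for ATF6 and -0.0629 to 0.0451 for SYVN1. Over all genes, 1923 (without CTRL replicate 1) to 2721 were called, 1974 without OE-WT replicate 1. DESeq2 called 1373 of all genes against 2976. The study's thresholds were passed by 445 genes, and by 288 with DESeq2, 738 with at least 1 count and 216 with the stricter filter.
Same-numbered libraries shared only a number (correlation of deviations -0.068). With a replicate block 2658 genes were called, and PDIA4 was at 0.256 with an adjusted p of 0.0527.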
